A study of Mus musculus with 11 samples.

Results

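Loss of Raptor was compared between the 8 sorted β-cell libraries of βRapKOGFP mice and the 3 libraries of WT mice, which are all 11 libraries of the series. Membership followed the genotype labels alone, so no measured value chose the libraries. The WT mice carried RIP-Cre and Rosa26GFP with an intact Raptor gene (Raptor+/+), and the mutants carried the same alleles with Raptor deleted (Raptor-/-). All were 8 weeks old, male and of a C57BL/6 x 129SV background. Of the mutants, 4 libraries came from mice without an insulin pellet, which the study calls diabetic, and 4 came from mice that had carried an insulin pellet for 4 weeks, which it calls euglycemic. Both glycemic states were given equal weight in the comparison with WT, and the difference between them was read separately. Which mutant libraries had a pellet was read from initials in the column names, on which the diabetic and euglycemic values rest but the comparison with WT does not. Cre was driven by the rat insulin promoter, so deletion and GFP labelling were restricted to cells in which that promoter had been active, and GFP+ cells were sorted from dispersed islets. No glucose value is part of these libraries, and the labels do not say whether each library is a separate animal, so p values measure the spread between these libraries.

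Raptor is the scaffold subunit of mTORC1, the kinase complex that couples amino acids, insulin and cellular energy to ribosome production, cap-dependent translation, lipid synthesis and the restraint of autophagy. Mature β-cells depend on a small set of transcription factors and on glucose uptake, mitochondrial coupling and granule exocytosis for secretion, and they keep the hormones of the other islet cells and a group of metabolic genes, called disallowed genes, silent. Loss of these features with a return of progenitor genes is known as dedifferentiation, and Aldh1a3 is a widely used marker of it.

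The values are FPKM, fragment numbers scaled to transcript length and to the size of the library, and differences are given on the log2(FPKM + 1) scale, which understates changes of genes at low levels. Depth inferred from the steps between low values was 9497515 to 16644088 fragments per library. Ins1 and Ins2 made up 17.5 to 41.3% of summed FPKM in every library, and all libraries had β-cell markers (Iapp at 28608 FPKM or more, Pdx1 at 39.0 or more). Diabetic 1 had 25711 genes above 0 and euglycemic 4 had 13095, against 15229 to 17329 in the other 9. The summed FPKM of the acinar markers was 19.2 to 83.8 in WT, 38.8 to 43.2 in diabetic 4, euglycemic 2 and euglycemic 3, and 1561 to 7426 in the other 5 mutant libraries. In bulk RNA, more cells of a type and more RNA per cell cannot be told apart.

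Rptor itself, at chr11:119602905-119899576 of GRCm38 on the plus strand, was measured at 0.948, 1.36 and 1.79 FPKM in WT. It was at 0.937, 0.831, 0.507 and 0.485 in the diabetic and at 0.423, 0.481, 0.623 and 0.438 in the euglycemic libraries. No mutant library reached the WT range, with a narrow gap between diabetic 1 and WT 1. The means were 1.37 ± 0.422 (SD, n = 3) and 0.591 ± 0.193 (SD, n = 8), and a two-sided exact permutation test gave p = 0.00606, the smallest that 8 against 3 libraries allow. Transcript remained in every mutant library. Rptor was below the level at which genes entered the test across all genes. Among the genes tested within 5 Mb of Rptor, 1 of 136 passed, Rab37 (0.735%, against 1.05% of all genes tested), and none of the 75 within 2 Mb did.

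Across the 11251 genes tested, 118 differed between mutant and WT libraries (1.05%) by limma, with a Benjamini-Hochberg adjusted p no higher than 0.05 and a fold change of 1.5 or more. Of these, 60 rose (0.533%) and 58 fell (0.516%), which is 50.8% higher, and after rescaling to TPM the split was 60 and 37, or 61.9% higher. Among the 118, 49 rose and 43 fell by at least 2-fold. The mutant and WT ranges did not overlap in 107 of them, a pattern seen in 3.68% of all genes tested. This held for 54 of the 60 that rose (1.9% of all genes) and 53 of the 58 that fell (1.78% of all genes). Before adjustment 1272 genes had a p of at most 0.05 (11.3%). The median difference over all genes tested was −0.0035 on these values scaled to library size. A separate fit with the acinar score as a covariate called 37 genes higher and 13 lower, among them 29 of the 60 and 13 of the 58. A fit of the 3 mutant libraries at WT acinar levels called 25 higher and 8 lower, among them 20 of the 60 and 6 of the 58. Of the genes that rose, 19 were below 1 FPKM in every WT library, and of those that fell, 5 were below 1 FPKM in every mutant library. Left out 1 library at a time, the sign of all 118 genes stayed as it was, while 21 of them passed in all 11 fits. Without WT 2 or WT 3 the number that passed dropped to 31 and 30. Over up to 25 alternatives the 118 genes passed in a median of 18 and at least 5, and 11 passed in each one in which they were tested, among them Serpina7, Gc, Cd24a, Pyy, Gucy2c, Cd79a and Slc2a2.

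**Figure D1:**
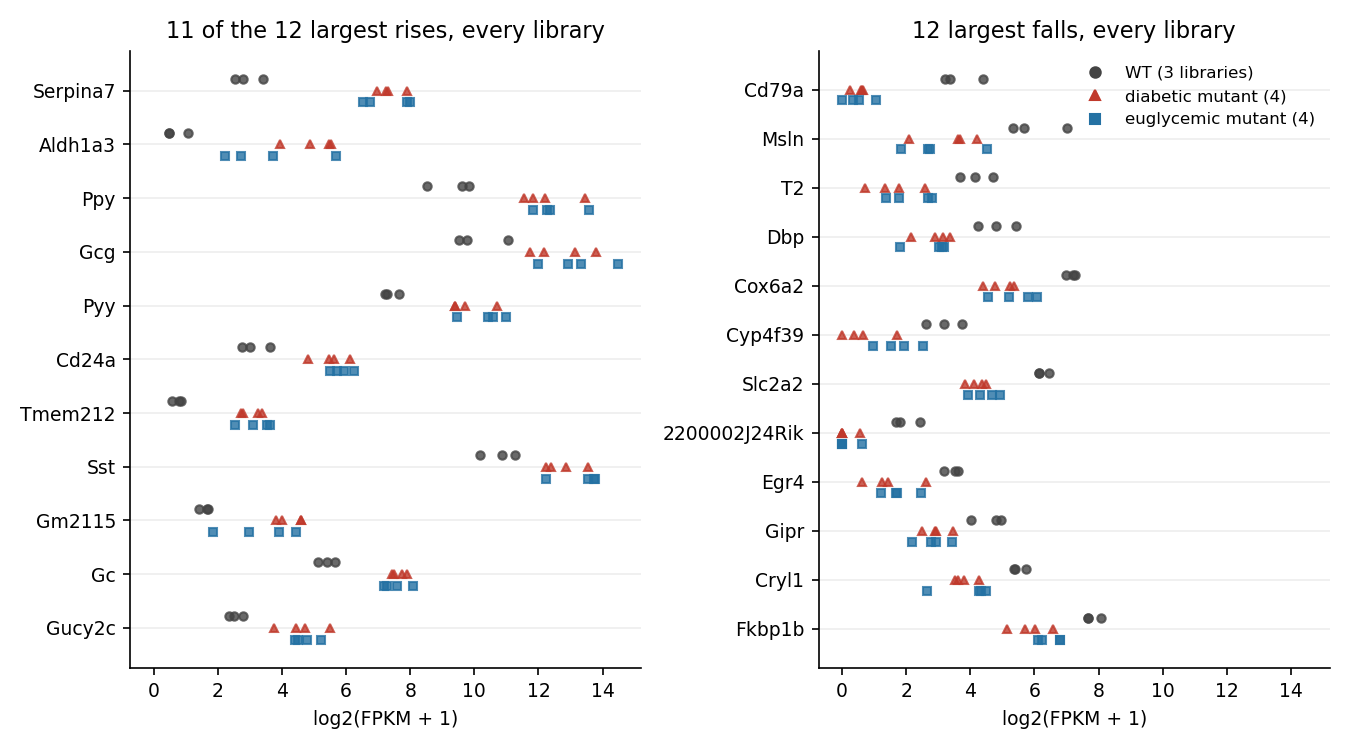
The largest rises (11 of 12 shown, left) and 12 largest falls (right), with log2(FPKM + 1) on the x axis and 1 point per library, for WT (grey circles), diabetic (red triangles) and euglycemic (blue squares) libraries. The genes were chosen among those without overlap, so what to read is the distance between the groups, which is widest for Serpina7 with a log2 difference of 4.42.

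The rises were led by Serpina7, which encodes thyroxine-binding globulin, a liver-secreted carrier that β-cells normally do not make (chrX:139079257-139085236, minus strand). Its FPKM was 4.76, 9.59 and 5.93 in WT, 156, 149, 239 and 124 in the diabetic and 239.7, 252, 107 and 92.2 in the euglycemic libraries. The lowest mutant value was far above the highest WT value in both glycemic states. The log2 difference was 4.42 with a standard error of 0.329 (adjusted p = 5.77e-05 from limma). On the FPKM scale the mutant mean was 25.1-fold that of WT. Serpina7 was also among the 5 called genes whose pooled change was least accompanied by a difference between glycemic states. The log2 difference was 4.44 in diabetic and 4.39 in euglycemic libraries, against the same WT libraries.

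Aldh1a3, a retinaldehyde dehydrogenase, was at 0.400, 0.385 and 1.11 FPKM in WT. It stood at 43.2, 14.4, 45.0 and 28.2 in the diabetic and at 12.1, 50.9, 5.61 and 3.66 in the euglycemic libraries. No mutant value came near WT, although the euglycemic libraries spread more widely than the diabetic ones. The log2 difference was 3.59 (standard error 0.575, adjusted p = 0.0113 from limma). Without diabetic 1 and euglycemic 4 it was 3.73 and passed, and in the 3 mutant libraries with acinar levels no higher than in WT it was 3.75 with an adjusted p of 0.058 from limma.

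The islet hormones of non-β cells rose together. Glucagon (Gcg) was at 867, 734 and 2116 FPKM in WT, at 9077, 4571, 3432 and 14073 in the diabetic and at 4093, 7786, 22921 and 10225 in the euglycemic libraries. Pancreatic polypeptide (Ppy) was at 364, 909 and 782 in WT, at 3007, 4709, 3606 and 11315 in the diabetic and at 3616, 5241, 12189.7 and 4873 in the euglycemic libraries. Somatostatin (Sst) was at 1854, 2469 and 1149 in WT, at 5334, 4868, 7391 and 12069 in the diabetic and at 13670.2, 13782, 11827 and 4774 in the euglycemic libraries. For all 3 hormones every mutant library exceeded every WT library. Peptide YY (Pyy), the neighbour of Ppy on chromosome 11 at a distance of 5357 bases, had WT levels of 149, 198 and 155 FPKM. Its level was 668, 668, 831 and 1664 in the diabetic and 1368, 1546, 2048 and 702 in the euglycemic libraries. The log2 differences were 2.83 for Gcg, 3.06 for Ppy, 2.27 for Sst and 2.70 for Pyy (limma adjusted p = 0.024, 0.00635, 0.0138 and 0.00249). Together these 4 hormones were 0.763 to 1.08% of summed FPKM in WT and 3.69 to 11.4% in the mutants. Relative to Ins1 and Ins2, their summed level was 0.0267 to 0.0295 in WT and 0.0893 to 0.530 in the mutants. The study states that its sorted GFP+ cells were not fully pure. By staining, it found glucagon in a larger share of GFP+ cells in mutant than in WT islets. It saw neither somatostatin nor pancreatic polypeptide together with GFP and insulin in mutant islets. Whether these hormone transcripts came from labelled β-cells or from other islet cells sorted with them was not tested.

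**Figure D2:**
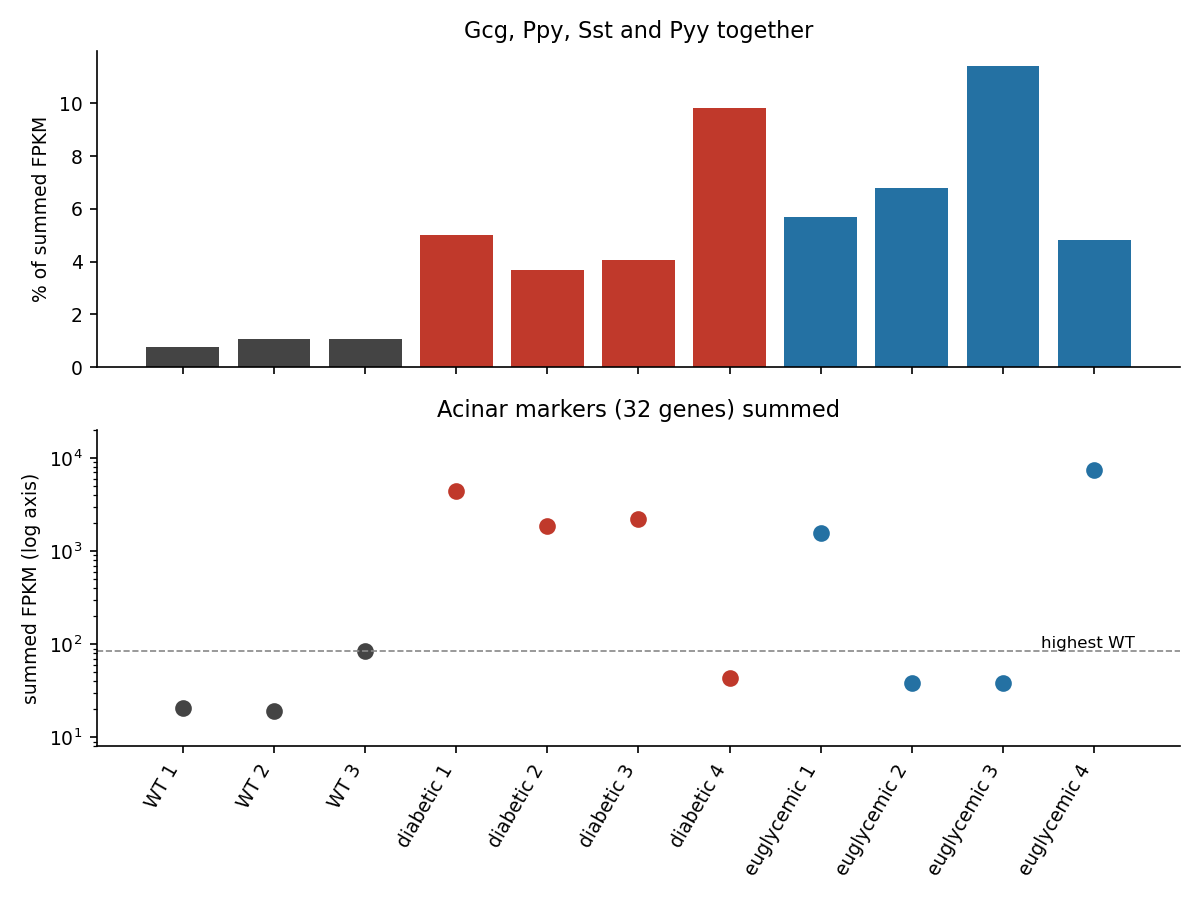
Bars show Gcg, Ppy, Sst and Pyy together as a percent of summed FPKM in each library, 0.763 to 1.08% in WT (grey) and 3.69 to 11.4% in the diabetic (red) and euglycemic (blue) mutants. Points below show the summed FPKM of the acinar markers on a log axis with a dashed line at the highest WT library, which diabetic 4, euglycemic 2 and euglycemic 3 do not exceed.

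The hormones were also compared in the 3 mutant libraries whose summed acinar markers, 38.8 to 43.2 FPKM, lay between those of WT 1 and WT 2 (20.7 and 19.2) and WT 3 (83.8). Their log2 differences from WT were 3.62 for Gcg, 3.81 for Ppy, 2.85 for Sst and 3.38 for Pyy, and each passed. In other alternatives Gcg did not pass without WT 1 (limma adjusted p = 0.076), without WT 2 (0.155) and with the replicate block (0.0787), nor did Sst without WT 3 (0.122) and with the block (0.0712). The acinar markers were higher in mutants for 28 of 28 members tested, with a median log2 difference of 3.29, and 1 of them rose, against 49.4% of all genes above 0. Of the 28, 26 were below 1 FPKM in at least 1 WT library and so needed a mutant library to be tested, which in part sets the direction of this count. Many acinar enzymes belong to families of near-identical genes, and their single values are uncertain.

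Other rises among the 12 largest included secreted and surface proteins. Gc, the vitamin D binding protein and an α-cell marker, was at 41.3, 34.1 and 49.7 FPKM in WT. It was at 172, 178, 214 and 237 in the diabetic and at 190.2, 270.0, 152 and 145 in the euglycemic libraries. The gap between the groups was wide relative to the spread within them, with a log2 difference of 2.18 (standard error 0.214, adjusted p = 0.000451 from limma). Cd24a, a surface glycoprotein of progenitor and epithelial cells, rose from 5.70 to 11.2 FPKM in WT to 27.0 to 75.2 in mutants (2.56, adjusted p = 0.000579). Gucy2c, the intestinal guanylate cyclase receptor, rose from 4.12 to 5.89 to 12.6 to 44.4 FPKM (2.12, adjusted p = 0.00477). Tmem212 (2.38) and Gm2115 (2.19) were also among the 12.

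Promoter sequences, the 250 bases upstream of the RefSeq start, are shown for 4 of the rises described above and for Hmgcs1, a classical sterol-regulated gene taken up below. They were chosen after the values and motifs were seen, and other rises, Tmem212 and Rbp4 among them, also hold TATAAA upstream. They are from the RefSeq promoters of GRCm38.p6, read 5′ to 3′ on the gene's strand, with the element or its reverse complement in capitals. Serpina7 (chrX:139085220-139085469, minus), Gcg (chr2:62483654-62483903, minus) and Ppy (chr11:102101320-102101569, minus) show TATAAA, the letters of a TATA box. The promoter of Gc (chr5:89457899-89458148, minus) is marked where GTTAAT is followed, after any 1 base, by ATTAA, the site of HNF1, a factor of liver, gut and islets. Hmgcs1 (chr13:119690101-119690350, plus) is marked at TCACNCCAC, the sterol regulatory element.
Serpina7: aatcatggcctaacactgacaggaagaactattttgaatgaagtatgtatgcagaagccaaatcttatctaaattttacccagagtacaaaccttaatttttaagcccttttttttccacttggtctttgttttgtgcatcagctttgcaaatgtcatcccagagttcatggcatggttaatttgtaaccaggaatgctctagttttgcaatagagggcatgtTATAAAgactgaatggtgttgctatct
Gcg: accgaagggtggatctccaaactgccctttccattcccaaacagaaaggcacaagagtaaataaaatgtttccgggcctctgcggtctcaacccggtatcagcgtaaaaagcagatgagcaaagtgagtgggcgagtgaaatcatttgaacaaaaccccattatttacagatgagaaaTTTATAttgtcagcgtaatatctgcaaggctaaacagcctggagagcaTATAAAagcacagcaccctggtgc
Ppy: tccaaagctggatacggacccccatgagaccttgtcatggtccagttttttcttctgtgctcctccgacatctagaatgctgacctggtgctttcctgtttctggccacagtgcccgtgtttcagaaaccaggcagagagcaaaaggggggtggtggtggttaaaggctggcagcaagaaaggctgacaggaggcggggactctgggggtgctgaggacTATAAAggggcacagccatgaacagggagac
Gc: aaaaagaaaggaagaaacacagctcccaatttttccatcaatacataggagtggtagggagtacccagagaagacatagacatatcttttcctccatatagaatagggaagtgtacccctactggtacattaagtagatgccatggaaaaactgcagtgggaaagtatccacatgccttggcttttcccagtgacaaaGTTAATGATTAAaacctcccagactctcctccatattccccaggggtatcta
Hmgcs1: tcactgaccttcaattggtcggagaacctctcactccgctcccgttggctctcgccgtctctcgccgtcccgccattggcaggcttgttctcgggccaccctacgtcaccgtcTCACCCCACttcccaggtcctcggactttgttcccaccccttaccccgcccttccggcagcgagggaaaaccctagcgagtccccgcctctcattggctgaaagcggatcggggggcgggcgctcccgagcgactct

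The capitals begin 27 bases before the start in Serpina7 and 31 before it in Ppy, near the usual place of a TATA box, 52 before it in Gc and 137 before it in Hmgcs1. Serpina7 has another RefSeq start, from which the same letters begin 10 bases before it. Gcg has 2 matches, 1 of them on the opposite strand. On either strand of 300-base windows (250 before to 50 after the start), TATAAA occurred in 11 of the 44 promoters of genes that rose (25%), 4 of the 37 of genes that fell (10.8%) and 689 of the 8471 of all genes tested with a promoter (8.13%). The HNF1 letters occurred in 7 of the 8471 (0.0826%), and the sterol letters in 118 (1.39%) and in 1 of the 22 sterol and fatty acid genes with a promoter. These are matches of letters and not measured binding.

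The falls were led by Cd79a, a signalling subunit of the B-cell receptor (chr7:24897381-24902197, plus strand). Its FPKM was 20.1, 8.20 and 9.22 in WT, 0.510, 0.561, 0.199 and 0.552 in the diabetic and 0.453, 0.277, 1.10 and 0 in the euglycemic libraries. No mutant value approached the lowest WT value, and the mean was 27.4-fold higher in WT. The log2 difference was −3.14 (standard error 0.27, adjusted p = 0.000162 from limma). Its partner gene in B-cells, Cd79b, was at 0 in every library, and the leukocyte marker Ptprc was above 0 in diabetic 1 alone. Msln (mesothelin) fell by 2.83 on the log2 scale (adjusted p = 0.0272 from limma) and its neighbour Mslnl, 283 bases away, by 1.52 (adjusted p = 0.000451). Mslnl lies outside the rule for named genes and was added after its values were seen.

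Genes of glucose sensing and zinc handling were among the other falls. Slc2a2, the β-cell glucose transporter (chr3:28697903-28731359, plus strand), was at 69.7, 87.0 and 70.0 FPKM in WT. It was at 16.3, 13.1, 21.4 and 19.4 in the diabetic and at 29.6, 18.9, 24.5 and 14.0 in the euglycemic libraries. Slc30a8, which loads zinc into insulin granules (chr15:52295553-52335798, plus strand), was at 712, 691 and 642 FPKM in WT. It was at 166, 167, 216 and 251 in the diabetic and at 308, 231, 339 and 232 in the euglycemic libraries. The groups did not overlap in either gene, and the WT libraries lay close together in both. The log2 differences were −1.93 (standard error 0.222) and −1.55 (standard error 0.196), with limma adjusted p values of 0.00136 and 0.00267.

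Gipr, the receptor of the incretin GIP, was at 15.1, 30.2 and 27.0 FPKM in WT and between 3.57 and 10.1 in the mutants (−1.70, adjusted p = 0.0122 from limma). Trpm5, a calcium-activated cation channel of β-cells, fell by 1.58 (adjusted p = 0.0109 from limma), and it lies 1219 bases from Cd81, which rose. Cox6a2, a cytochrome oxidase subunit typical of striated muscle and also abundant in these β-cells, was at 124, 152 and 148 FPKM in WT, at 20.1, 37.0, 26.4 and 40.5 in the diabetic and at 66.7, 36.0, 54.4 and 22.3 in the euglycemic libraries. The 2 groups were far apart, with a log2 difference of −1.97 (adjusted p = 0.00899 from limma). The clock output factor Dbp was at 26.9, 18.1 and 41.7 FPKM in WT and between 2.51 and 9.36 in mutants (−1.99, adjusted p = 0.0138). Of the bases in exons, 18.0% in Dbp and T2 and 10.3% in Cox6a2 are shared with another gene, and the library kit does not keep the strand. T2 (−2.29), Cyp4f39 (−1.97), 2200002J24Rik (−1.83), the immediate early factor Egr4 (−1.81), Cryl1 (−1.64) and Fkbp1b (−1.63) also fell. Of the 12 largest falls, 11 passed without diabetic 1 and euglycemic 4, and 5 did in the 3 low-acinar mutant libraries. The corresponding numbers for the 12 largest rises were 12 and 10, and all 24 kept their sign in both.

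The comparison of mutant groups shows how far these differences were shared by both glycemic states. Between diabetic and euglycemic mutants 1 of the genes tested passed (0.00889%), Esm1, an endothelial gene, while 20.6% of the genes (2317) had p at or below 0.05 before adjustment. None of the 118 genes passed in that contrast, while 34 of them (28.8%) were at or below 0.05 before adjustment. Of these, 8 rises were greater in diabetic and 8 in euglycemic libraries, and 14 falls were deeper in diabetic and 4 in euglycemic libraries. The size of the glycemic difference relative to the pooled one had a median of 0.252 (quartiles 0.120 and 0.417), and it exceeded 0.5 in 20 genes. A p that misses the threshold does not show that the 2 states were alike.

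**Figure D3:**
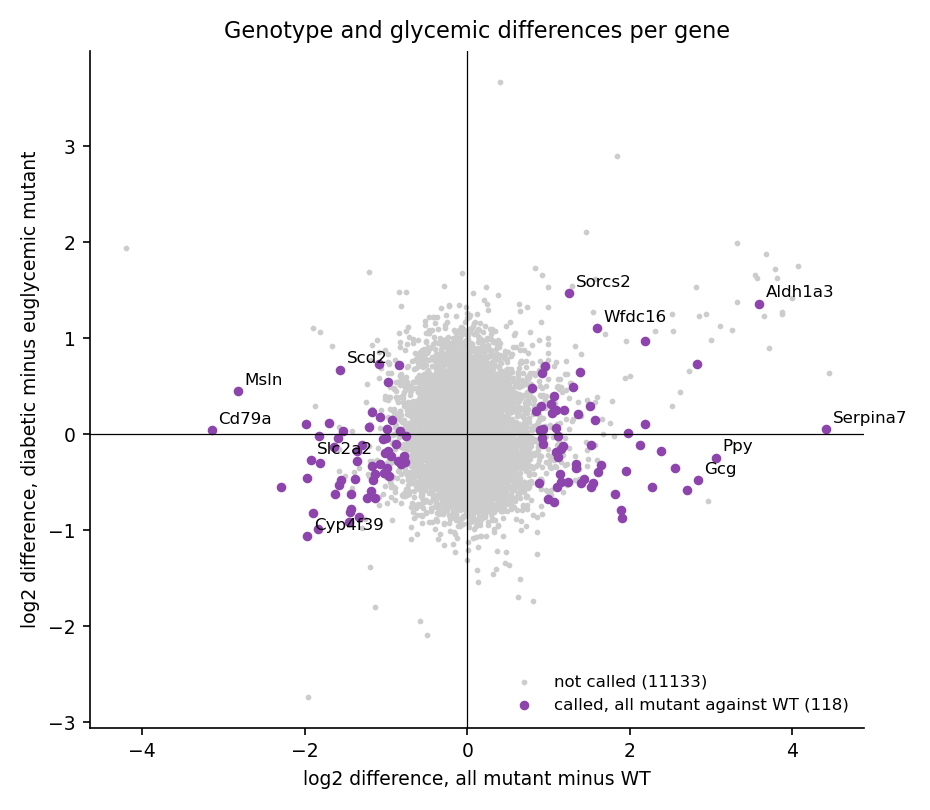
Each point is a gene, with the log2 difference of all mutant from WT libraries on the x axis and that of diabetic from euglycemic mutants on the y axis. The 118 called genes (purple) spread from −3.14 to 4.42 on the x axis, and none of them passed the test on the y axis.

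The ratio was smallest for 2200002J24Rik, Tmed6, Serpine2, Serpina7 and Cd79a. Tmed6, a cargo receptor of the early secretory pathway, had log2 differences of 1.98 in diabetic and 1.97 in euglycemic libraries. It was largest for Sorcs2, Wfdc16, Calcoco1, Dnajb9 and Rasgrf2. Sorcs2, a sorting receptor of the VPS10 family, was at 0.0140, 0.30 and 0.185 FPKM in WT, at 3.81, 3.97, 4.48 and 2.43 in the diabetic and at 0.699, 1.62, 0.685 and 0.0202 in the euglycemic libraries. The euglycemic libraries lay below every diabetic library, and euglycemic 4 was within the WT range. The difference between mutant groups was 1.47 (standard error 0.26, adjusted p = 0.0846 from limma). Calcoco1, an autophagy receptor, showed the opposite order, with log2 differences of −0.47 in diabetic and −1.20 in euglycemic libraries. It passed in 5 of 25 alternatives only, and not without WT 2 or WT 3.

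β-cell maturity genes were mostly lower in mutants. Of 30 tested, 7 fell (against 0.516% of all genes) and none rose. They were Slc2a2, Gipr, Trpm5, Slc30a8, Rab37 (a granule-associated GTPase, −1.29), Ppp1r1a (a protein phosphatase inhibitor, −1.13) and Sytl4 (granuphilin, which docks insulin granules, −1.0). The study itself reports these 7 as lower from these libraries, so their number is no independent evidence. In all, 23 of the 30 had a value below 0, against 50.6% of all genes tested. In the 3 low-acinar mutant libraries Slc2a2 passed, while the other 6 did not (limma adjusted p = 0.0874 to 0.32), with log2 differences of −0.92 to −1.53 in this smaller set. With the acinar covariate Slc2a2 and Slc30a8 passed. The median was −0.55 over the list, −0.55 in diabetic and −0.41 in euglycemic libraries. Unadjusted p values of at most 0.05 were found for 14 lower members (46.7%, against 5.37% of all genes) and 1 higher one (Ttr). The major secretory products were not among the genes that passed. Ins1 had a log2 difference of −0.58 (95% interval −1.20 to 0.04, adjusted p = 0.487 from limma) and Ins2 of −0.13 (−0.97 to 0.70, adjusted p = 0.948). With library weights, where 1116 genes passed against 118 in the main comparison, Ins1 was at −0.79 and passed (limma adjusted p = 0.0128). Iapp, the amylin gene, had 0.31 (−0.24 to 0.87, adjusted p = 0.752). G6pc2 (−0.46) and Ucn3 (−0.57, and −0.29 without WT 1) did not pass.

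None of the 21 islet transcription factors tested passed in the main comparison. Pdx1, the master regulator of β-cells, was at 99.6, 76.6 and 96.0 FPKM in WT, at 40.6, 39.0, 63.0 and 55.6 in the diabetic and at 81.9, 41.1, 59.5 and 52.1 in the euglycemic libraries. Only euglycemic 1 reached into the WT range, and the log2 difference was −0.77 (95% interval −1.25 to −0.29, adjusted p = 0.164 from limma). Nkx6-1 had −0.45 (adjusted p = 0.489) and Mafa, which was at 11.9 FPKM in WT 1 against 53.5 and 62.2 in the other WT libraries, −0.53 (adjusted p = 0.756). Without WT 1 the value of Mafa was −1.25 (adjusted p = 0.0999), without WT 3 it was −0.11, and with library weights it was −1.27 and passed (adjusted p = 0.00966). Pdx1 and Nkx6-1 also passed with library weights (limma adjusted p = 0.0403 and 0.0351). That fit called 1116 of all genes tested, against 118 in the main comparison. Mafa, Pdx1 and Nkx6-1 each passed in 1 of 25 alternatives only. Of the 21, 18 had values below 0, with a median of −0.23, −0.06 in diabetic and −0.47 in euglycemic libraries. In 7 of them the euglycemic libraries were lower than the diabetic ones at an unadjusted p of at most 0.05 (against 10.6% of all genes).

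**Figure D4:**
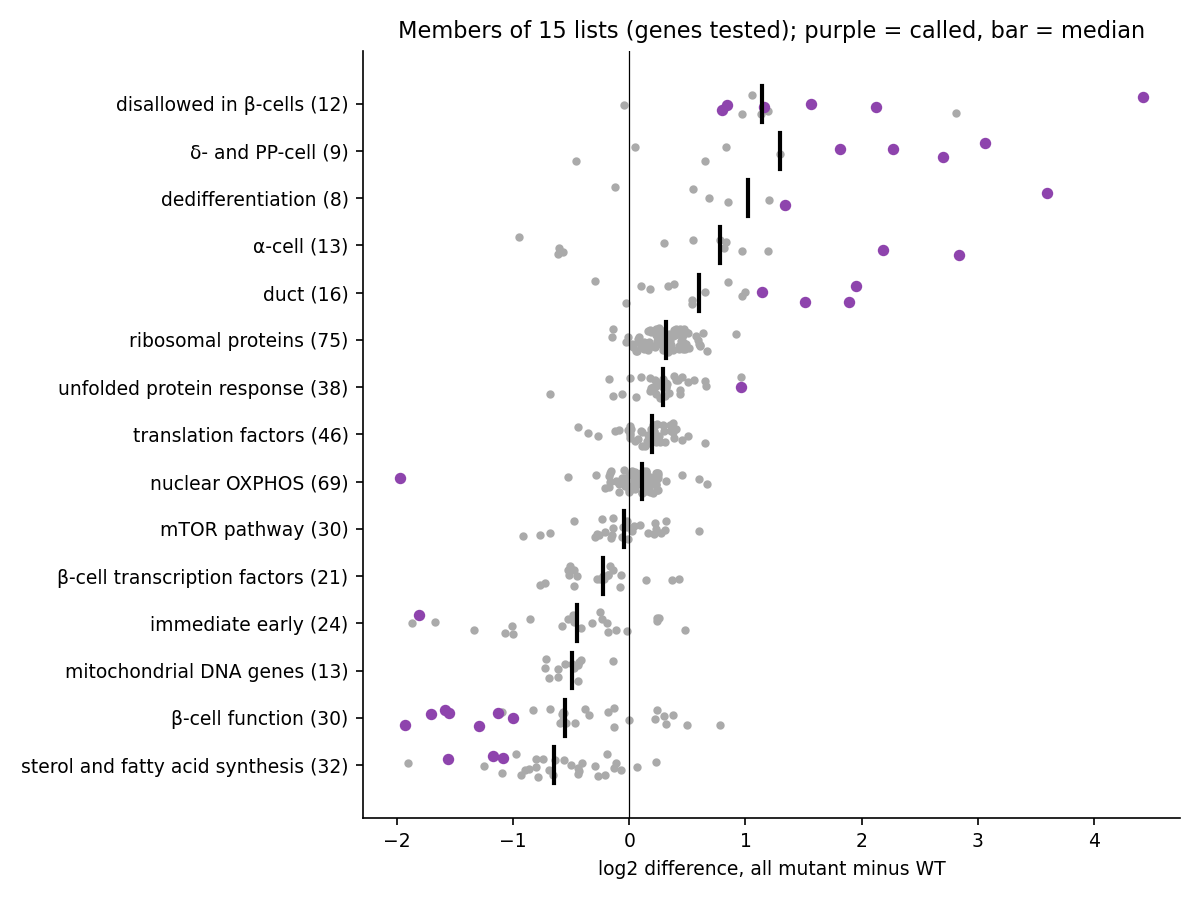
Log2 differences of mutant from WT libraries for the tested members of 15 gene lists, with called genes in purple and the median of each list as a bar. Medians run from −0.65 in sterol and fatty acid synthesis to 1.3 in δ- and PP-cell markers.

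Among δ- and PP-cell markers 4 of 9 tested rose, against 0.533% of all genes. Beside Sst, Ppy and Pyy this was Rbp4, the retinol carrier (1.81, adjusted p = 0.0208 from limma). The δ-cell factor Hhex was at 1.60, 2.72 and 1.13 FPKM in WT and reached 12.7 in euglycemic 1, but it was at 0.945 in euglycemic 4 and did not pass (1.3, adjusted p = 0.339). Among α-cell markers 2 of 13 tested rose, Gcg and Gc, against the same 0.533%.

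Disallowed genes were higher in mutants in 11 of the 12 tested (against 49.4% of all genes), and 6 of the 12 rose (against 0.533%). Of the 12, 8 were below 1 FPKM in at least 1 WT library and needed a mutant library to be tested, which in part sets this direction, and 3 of the other 4 were higher. These were Serpina7, Gucy2c, Aass (a lysine-degrading enzyme, 1.57), Acot7 (an acyl-CoA thioesterase, 1.16), Trf (transferrin, 0.84) and Gfra1 (a GDNF receptor, 0.80). The median was 1.15, with 1.14 in diabetic and 1.12 in euglycemic libraries. Ldha, lactate dehydrogenase and a classical disallowed gene, was at 0.0793, 0.422 and 0.0804 FPKM in WT. It was at 3.24, 1.23, 2.13 and 0.403 in the diabetic and at 2.33, 1.98, 0.957 and 1.56 in the euglycemic libraries. Diabetic 4 overlapped WT 2, and the log2 difference of 1.13 had an adjusted p of 0.103 by limma. Ldha passed in 3 of 25 alternatives, over which its log2 difference ran from 0.77 to 2.65. Slc16a1, the lactate transporter, did not enter the test and was at 0 in 1 WT and 2 mutant libraries, with 1.18 FPKM as its highest value. Of the 26 disallowed genes listed, 14 were too low to be tested.

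Of the 8 dedifferentiation genes tested, 6 of which needed a mutant library to be tested, 2 rose (against 0.533% of all genes), Aldh1a3 and Cd81, a tetraspanin surface marker (1.34, adjusted p = 0.00463 from limma). Cd81 was at 45.0, 68.9 and 68.7 FPKM in WT and at 128 to 203 in the mutants, so the groups did not overlap. Neurog3, the endocrine progenitor factor, was at 0, 0.820 and 0.144 FPKM in WT. It was at 1.93, 0.929, 3.29 and 1.88 in the diabetic and at 6.59, 2.89, 1.64 and 0 in the euglycemic libraries. All mutant libraries but euglycemic 4 were above WT, and the gene did not pass (1.20, adjusted p = 0.322).

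Duct markers rose in 4 of 16 tested, against 0.533% of all genes. Of the 16, 5 needed a mutant library to be tested, Krt19 and Anxa2 among them, which in part sets their direction. They were Spp1 (osteopontin, 1.95, adjusted p = 0.00939 from limma), Krt19 (a duct keratin, 1.89, adjusted p = 0.0138), Anxa2 (1.51, adjusted p = 0.0113) and Ambp (1.14, adjusted p = 0.0458). Krt19 was at 0.505 to 0.853 FPKM in WT and at 2.54 to 6.85 in the mutants other than euglycemic 4, where it was at 16.5. Cftr, which defines duct cells, did not exceed 0.140 FPKM in any library. Spp1, Krt19 and Anxa2 passed in the 3 low-acinar mutant libraries, with log2 differences of 2.20, 1.83 and 1.64. Ambp did not pass there (limma adjusted p = 0.0953), and with the acinar covariate neither Krt19 (0.0852) nor Ambp (0.0851) passed. Of the exon bases of Spp1, 18.8% are shared with a gene model on the same strand.

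Other cell types left smaller traces. The endothelial markers summed to 1.64 to 4.08 FPKM in WT, 14.1 to 64.8 in the diabetic and 3.50 to 10.8 in the euglycemic libraries, and 3 of the 20 were high enough to be tested. Plvap, a protein of endothelial diaphragms, made up much of that sum in the diabetic libraries, at 39.9, 6.14, 6.35 and 14.0 FPKM. It was at 0 to 1.82 in the euglycemic and 0 to 1.38 in the WT libraries. Its log2 difference was 1.84 in the pooled comparison (adjusted p = 0.132 from limma) and 2.90 between diabetic and euglycemic libraries (adjusted p = 0.0868). The defining members Pecam1 and Cdh5 were at or below 1.35 and 0.443 FPKM, and they too were highest in the diabetic libraries. Ramp2, the highest member in each euglycemic library, went the other way. It was at 2.73 to 7.27 FPKM there, 2.20 to 4.00 in the diabetic and 1.13 to 2.56 in the WT libraries. Its log2 difference was −0.46 between diabetic and euglycemic libraries and 0.90 in the pooled comparison (limma adjusted p = 0.354 and 0.169). Immune markers summed to 46.0 to 64.2 FPKM in WT and 62.8 to 202 in the mutants, with 4 members at 0 in every library. C1qa, a complement component, made up more of these sums than the other members together, except in diabetic 1, at 33.3 to 41.4 FPKM in WT and 53.8 or more in the mutants, and Cd79a added to those of WT. The related C1qb and C1qc did not exceed 0.267 and 0.0687 FPKM in WT or 8.45 and 2.81 in the mutants. In diabetic 3, where C1qa was at 196, they were at 0.332 and 0. Stromal markers summed to 6.10 to 13.5 in WT and 3.31 to 53.3 in the mutants, and without diabetic 1 the highest mutant value was 15.1. The part of these cell types in the differences above was not tested beyond the acinar covariate and the low-acinar libraries.

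Genes of sterol and fatty acid synthesis were lower in mutants in 30 of 32 tested (against 50.6% of all genes). Of these, 3 fell (against 0.516% of all genes), among them Scd2, a fatty acid desaturase, and Stard4, a cholesterol carrier. Scd2 was at 36.9, 34.1 and 54.6 FPKM in WT, at 14.2, 17.2, 16.0 and 21.0 in the diabetic and at 9.56, 8.05, 13.4 and 10.6 in the euglycemic libraries. All euglycemic values lay below all diabetic values, which in turn lay below all WT values. The log2 differences were −1.56 for Scd2 and −1.17 for Stard4 (limma adjusted p = 0.00267 and 0.0288). Over 25 alternatives Scd2 passed in 24, while Stard4 passed in 14 only. Hmgcs1, whose promoter is shown above, was at 156, 87.0 and 126 FPKM in WT, at 34.1, 32.5, 57.3 and 72.0 in the diabetic and at 13.3, 39.9, 44.4 and 7.74 in the euglycemic libraries. The groups did not overlap, but with its wide spread the gene did not pass (−1.90, adjusted p = 0.0745). In total 18 members were lower at an unadjusted p of at most 0.05 (56.3%, against 5.37% of all genes) and none was higher. The median was −0.65, −0.48 in diabetic and −0.72 in euglycemic libraries.

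Transcripts of the mitochondrial genome were all 13 lower in mutants (against 50.6% of all genes), with a median of −0.49, and none passed. An unadjusted p of at most 0.05 was found for 6 (against 5.37% of all genes), among them mt-Nd5 (−0.69, adjusted p = 0.105 from limma), mt-Co1 and mt-Co3. Their sum was 2.41 to 3.52% of summed FPKM in WT and 1.51 to 2.64% in the mutants. The median was −0.82 in diabetic and −0.24 in euglycemic libraries. The nuclear-encoded respiratory chain had a median of 0.11 over 69 genes tested, with Cox6a2 as the 1 that fell. That median hid opposite values, −0.21 in diabetic and 0.42 in euglycemic libraries, and 53 of the 69 were lower in diabetic than in euglycemic libraries at an unadjusted p of at most 0.05 (against 10.0% of all genes). The WT libraries spanned −0.30 to 0.52 for the same median, which covers both mutant groups except the lowest diabetic library.

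**Figure D5:**
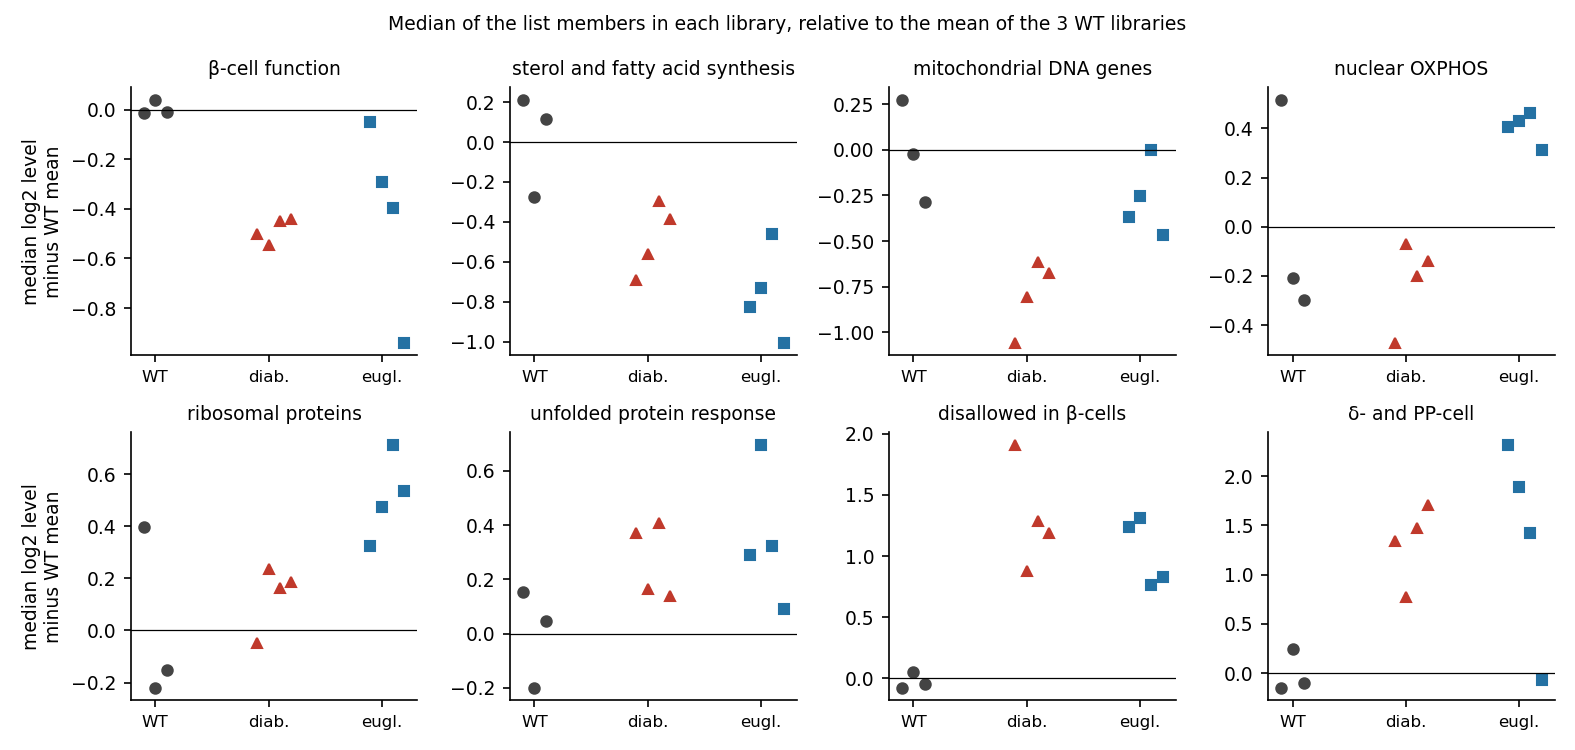
Median over list members of log2(FPKM + 1) minus the mean of the 3 WT libraries, 1 point per library, for 8 gene lists. Disallowed genes, 8 of 12 of which needed a mutant library to be tested, lie at 0.76 or higher in every mutant library, and the nuclear OXPHOS genes spread from −0.30 to 0.52 within WT.

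The libraries also differed by transcript length. In the shortest of 5 equal bins of transcripts by exon length the median deviation from the WT mean was 0.33 in WT 1, −0.17 in WT 2 and −0.15 in WT 3. The diabetic libraries were between −0.25 and 0.01 and the euglycemic ones between 0.01 and 0.30 in that bin. In the pooled comparison this difference was 0.05 in the shortest and −0.04 in the longest bin, while between mutant groups it was −0.31 and 0.26. With the trend removed from each library 168 genes passed, 85 higher and 83 lower, and 114 of the 118 were among them. The respiratory chain genes that were lower in diabetic libraries then numbered 35 of 69.

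Cytosolic ribosomal protein genes, whose translation depends on mTORC1, had values above 0 in 71 of 75 tested (against 49.4% of all genes). Their median was 0.32, and none passed. Their sum was 0.628% of summed FPKM in WT 1, 0.396% in WT 2 and 0.427% in WT 3. It was 0.521 to 0.661% in the diabetic libraries, which overlapped WT 1, and 0.682 to 0.808% in the euglycemic ones. The length trend given above was left in these values. The median was 0.12 in diabetic and 0.54 in euglycemic libraries, and 18 members were higher at an unadjusted p of at most 0.05 (24.0%, against 5.94% of all genes). Many of these genes have near-identical pseudogenes, so their single values are uncertain. Translation factors had a median of 0.19 with 40 of 46 above 0 (against 49.4% of all genes), and none passed. The mTOR pathway genes had 30 tested, a median of −0.04 and none that passed. Mtor had −0.14 (95% interval −0.64 to 0.35, adjusted p = 0.903 from limma), Rictor, the mTORC2 scaffold, −0.02 (−0.37 to 0.34, adjusted p = 0.988) and Eif4ebp1, the translation repressor that mTORC1 phosphorylates, 0.60 (−0.91 to 2.1, adjusted p = 0.846). The signs of Rictor and Eif4ebp1 were not stable to the processing.

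ER chaperones and genes of the unfolded protein response were above 0 in 34 of 38 (against 49.4% of all genes), with a median of 0.29. Dnajb9, an ER co-chaperone, was the member that rose (0.96, adjusted p = 0.0412 from limma), against 0.533% of all genes. It passed in 8 of 25 alternatives only, and it did not pass when WT 1, WT 2 or WT 3 was left out. It was at 111, 154 and 137 FPKM in WT, at 313, 308, 366 and 339.6 in the diabetic and at 169, 179, 185 and 298 in the euglycemic libraries. Both mutant groups were above WT, and 3 of the 4 euglycemic libraries lay closer to WT than to the diabetic libraries. The ATF4 targets had a median of 0.08 over 34 genes and none passed. In the 300-base windows, the ER stress element, CCAAT and CCACG with any 9 bases between them, occurred in 9 of 30 unfolded protein response promoters (30%), against 15 of 8471 (0.177%) of all genes tested.

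Of the genes of the circadian clock, Dbp fell as given above. The repressor Nr1d1 had a log2 difference of −1.81 (adjusted p = 0.136 from limma) and the repressor Cry1 had 0.81 (adjusted p = 0.109). The hour of collection of each library is not in the labels, and its part in these values was not tested.

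Immediate early genes were below 0 in 20 of 24 (against 50.6% of all genes), with Egr4 as the member that fell (against 0.516%). Fos ranged from 172 to 972 FPKM in WT and from 55.7 to 2073 in the mutants and had a log2 difference of −1.01 (95% interval −3.03 to 1.01, adjusted p = 0.793 from limma). In smaller families the calls were single genes. Nqo1, an NRF2 target that reduces quinones, fell from 9.64 to 13.2 FPKM in WT to 2.50 to 7.19 in mutants (−1.18, adjusted p = 0.0113), and none of the other 38 antioxidant genes tested passed. Mt3, a metallothionein, rose (1.52, adjusted p = 0.0186), while Slc30a8 was the 1 zinc transporter that fell. Slc38a5, a glutamine transporter, rose (1.15, adjusted p = 0.0213). The aldolase Aldoc (−1.03, adjusted p = 0.0202) and the mitotic cyclin Ccnb2 (−1.07, adjusted p = 0.0202) fell. The imprinted gene Dlk1 rose (1.03, adjusted p = 0.0463), but it passed in 11 of 25 alternatives only. The lists of lysosome, proteasome, TCA cycle, mitochondrial ribosome, fatty acid oxidation, insulin signalling, interferon and cell death genes held no gene that passed, and their medians lay between −0.23 and 0.16.

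Of the 118 genes, 76 belonged to none of the 39 lists, and 112 were protein coding. On the genome, 7 pairs of them lay within 100000 bases of each other, 6 of the pairs with both genes in the same direction. Chromosome 7 held 15 of them among 822 genes tested (1.82%, 5 higher and 10 lower) and chromosome 6 held 11 of 533 (2.06%, 8 higher and 3 lower), against 1.05% over all genes. Cd79a, Dbp, Cox6a2, 2200002J24Rik and Gipr, all among the 12 largest falls, are on chromosome 7, and Msln, T2 and Cyp4f39 are on chromosome 17.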

How the data were processed

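Poly-A RNA of FACS-sorted GFP+ β-cells was measured in 11 libraries (3 WT, 4 diabetic and 4 euglycemic βRapKOGFP) with an unstranded kit. The deposited table holds 1 FPKM value per gene and library, made by the authors and mapped to mm10, with no further normalization. The submitters' processing notes name HISAT2 2.0.4, StringTie 1.3.0 and edgeR, while the methods of the study name Tophat and Cufflinks, and this was not resolved. Of 34745 entries 34344 were matched to GENCODE vM21 symbols and 401 were not, and 34719 symbols were kept. Columns were assigned to libraries by their names, and 0 columns were left unused. The 4 KI columns were read, from the initials of the sample titles, as the mutants with a pellet, the 1 group left, and every difference between diabetic and euglycemic libraries rests on that reading. No pair of libraries held identical values. Depth was inferred, since no totals are given, from the steps between low values of single-exon genes, and its number of fragments limits the precision of low values.

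The 11251 genes at 1 FPKM or more in 3 or more libraries were fitted as log2(FPKM + 1) with limma 3.58.1 (lmFit, eBayes with a trend) in R 4.3.3, in 1 design with 3 groups. The contrast was the mean of both mutant groups minus WT, and diabetic minus euglycemic, which is orthogonal to it, was read beside it. A gene was called where the Benjamini-Hochberg adjusted p was no higher than 0.05 and the fold change was 1.5 or more, and "rose" and "fell" refer to called genes. A call across all genes does not depend on the lists. In simulated data, 193 of 200 genes changed 4-fold and 108 of 200 changed 2-fold were called, with 9 and 7 unchanged genes, and 0 were called when none was changed (11251 genes each). Rptor and genes below the filter were compared by exact permutation. Python 3.11.15, numpy 2.4.6, pandas 2.3.3, scipy 1.17.1 and matplotlib 3.10.9 were used for the rest.

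Named genes are Rptor, the 12 largest rises and falls among called genes without overlap, up to 4 called members of each list, a fixed set of key islet and mTOR genes, and the 5 called genes with the largest and the 5 with the smallest relative glycemic difference. Some genes that this rule takes are not reported here. Further list members were named after their values were seen. Lists and members were chosen with earlier results of these data known. Some of the β-cell maturity, α-cell, disallowed and dedifferentiation genes are ones the study shows from these libraries. The lists are therefore no independent evidence of direction. The alternatives were another pseudocount, filter, scaling, design, spread and library weighting, acinar and immediate early scores as covariates, each library left out, and the replicate number as a block. Both diabetic 1 and euglycemic 4 left out, the low-acinar mutants alone, and removal of the transcript length trend were chosen after seeing the data. Replicate numbers are not stated to mark shared animals or days.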

Additional observations from a re-analysis of the deposited data

Results flagged for a closer look

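A library was singled out where it stood apart from the other 3 of its group, with a gap to the nearest of more than 0.829 of the group's range. This happened in 12 of 148 groups of 4, where chance alone gives 1 in 20, or 7.4. In euglycemic 4, 6 of the named genes stood apart. Sst was at 4774 FPKM there against 11827 to 13782 in the other 3, Dbp at 2.51 against 7.09 to 8.13, and Cryl1 at 5.30 against 18.2 to 21.3. Dnajb9 was higher there at 298 against 169 to 185, Krt19 at 16.5 against 5.37 to 5.67, and Mtor at 2.99 against 1.39 to 1.44. This library also had 13095 genes above 0 against 17194 to 17329. In diabetic 1 the number was 25711 against 15229 to 16392. In diabetic 3 the B-cell receptor gene Cd79a was at 0.199 FPKM against 0.510 to 0.561, and Tmed6 was at 128 against 64.7 to 70.0. The uncharacterised transcript 2200002J24Rik was at 0.483 in diabetic 4 and at 0.541 in euglycemic 1, and at 0 in the other libraries of both groups.

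The endothelial gene Esm1 differed between the glycemic states, with a log2 difference of 1.66 of diabetic from euglycemic libraries (adjusted p = 0.0498 from limma). The adjusted p lies at the threshold.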

How the results depend on the processing

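The sign of all 118 genes stayed the same when each library was left out in turn, but the number that passed (118, with 60 higher and 58 lower) ranged from 30 to 177, higher from 18 to 103 and lower from 12 to 74. It was 23 (11 higher, 12 lower) with no filter, 50 (37, 13) with the acinar score as covariate, 1116 (665, 451) with library weights, and 33 (25, 8) in the low-acinar mutants, where fewer libraries were used. With a pseudocount of 0.1, TPM, or 2 groups with no glycemic term, 33, 37 and 38 genes were lower. With the replicate number as a block it was 53 (32, 21). Same-numbered libraries deviated with a mean correlation of −0.132 (−0.368 to 0.212) and none of 11 libraries was closest to its own number, so the numbers are not read as pairs. The cause of the other shifts was not tested. Of the 118 genes, 69 passed without WT 1, 30 without WT 2, 27 without WT 3, 101 without diabetic 1 and euglycemic 4, 26 in the low-acinar mutants, 42 with the acinar covariate, 45 with the block and 94 in TPM.

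Between diabetic and euglycemic mutants 1 gene passed, while 2317 were at or below an unadjusted p of 0.05. Leaving out 1 library gave 0 to 378 genes (0 to 194 higher, 0 to 184 lower), with 378 without WT 1. Library weights gave 1212 (651, 561). None passed with the pseudocount of 0.1, no filter, a mean FPKM of at least 1, TPM, median of ratios, the block (2016 at an unadjusted p of at most 0.05), either covariate, or the length trend removed (1875 at that p). Without diabetic 1 and euglycemic 4 it was 1, and that gene was lower, with 0 higher.

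Signs turned in 4 genes that did not pass. Ins2 was at 0.063 without WT 2, and its other values were below 0, −0.32 without diabetic 1 and euglycemic 4 and as low as −0.54 with library weights. Eif4ebp1 was at −0.47 and Fos at 0.37 with the immediate early score as covariate. Rictor was at 0.044 with library weights, 0.059 with the acinar covariate, 0.031 without diabetic 1 and euglycemic 4, 0.041 in the low-acinar mutants, 0.015 with the length trend removed, −0.062 without diabetic 3, and 0.0040 to 0.023 where WT 1, diabetic 1, diabetic 2, euglycemic 2 or euglycemic 4 was left out. At the inferred depth, levels below about 1 FPKM rest on few fragments.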
